A study of Arabidopsis thaliana with 36 samples.

Results

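Phloem is the tissue that carries sugars through a plant, and 10 Arabidopsis thaliana genes known from it were followed here through hypocotyls after wounding. They were taken by locus from the 32833 loci counted in each library: SUC2 (AT1G22710), SWEET11 (AT3G48740), SWEET12 (AT5G23660), AHA3 (AT5G57350), SEOR1 (AT3G01680), SEOR2 (AT3G01670), PP2-A1 (AT4G19840), CALS7 (AT1G06490), APL (AT1G79430) and OPS (AT3G09070). All 10 were present in the files and all 10 passed the filter on low counts, which kept 19819 loci. The material was seedlings of the ahk3 ahk4 double mutant and of the wild type Col-0 (WT), stratified for 3 days, grown for 5 days in low light and then cut above the junction of root and shoot. AHK3 and AHK4 are histidine kinase receptors for cytokinin, and AHK2, the other receptor of the family, is not named in the mutant's genotype. The labels do not name the mutant alleles. Segments of 2 to 3 mm were taken from the basal and the medial region of the hypocotyl at 0, 8 and 16 h after wounding, in 3 biological replicates of each of the 12 groups. RNA was read with QuantSeq, a kit that sequences the 3′ end of polyadenylated transcripts, so a count is a number of transcript ends and does not scale with gene length.

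In mature phloem, living sieve elements without nuclei conduct the sap and the companion cells beside them load it and keep them supplied. Sucrose leaves neighbouring cells through the SWEET exporters and is taken up by the proton symporter SUC2, which uses the gradient made by plasma membrane proton pumps such as AHA3. SEOR1 and SEOR2 are filament proteins of the sieve element, PP2-A1 is a phloem lectin, CALS7 makes callose at the sieve pores, APL is a transcription factor for phloem identity, and OPS is a membrane protein that acts in early sieve element differentiation.

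The mutant label was visible in the counts: AHK3 lay between 1.33 and 8.71 CPM (counts scaled to library size) in ahk3 ahk4 and between 43.8 and 164 CPM in WT, over 18 libraries each, and AHK4 between 0.0986 and 2.20 CPM in ahk3 ahk4 and between 2.52 and 14.1 CPM in WT. AHK2 lay between 0.502 and 6.92 CPM in ahk3 ahk4 and between 0.363 and 10.2 CPM in WT. Between 6136167 and 13557332 reads per library were assigned to genes. Read shares moved with the groups. In ahk3 ahk4 basal segments 44.2% to 60.3% of reads aligned at more than 1 place at 0 h. At 16 h it was 2.98% to 15.1%. Reads outside genes were 3.91% to 4.61% at 0 h and 1.51% to 2.64% at 16 h there. In ahk3 ahk4 medial segments 18.5% to 39.8% aligned at more than 1 place at 0 h and 19.9% to 30.7% at 16 h. WT medial 8 h replicate 3 and ahk3 ahk4 medial 8 h replicate 1 stood apart from their replicates, with correlations across genes of at most 0.937 and 0.917, so results of the 10 genes that rest on either are given without it too. The segments hold many cell types, and fewer phloem cells and less RNA per phloem cell cannot be told apart. Every library at 8 or 16 h came from wounded tissue, so time since the cut and the hour of sampling cannot be told apart either. Nothing in the labels says how many seedlings a replicate pooled, so p-values measure the spread between these samples.

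After wounding, most of these genes fell. Over the 8 comparisons of a later time with 0 h of the same genotype and region, 49 of the 80 tests of the 10 genes called a lower level and 3 a higher one, where a call needs a p under 0.05 after Benjamini-Hochberg adjustment over every gene tested. The 4 genes of sucrose transport (SUC2, SWEET11, SWEET12 and AHA3) were called lower in 31 of 32 tests. The 4 structural or enzyme genes (SEOR1, SEOR2, PP2-A1 and CALS7) were called lower in 16 of 32. The 2 regulators (APL and OPS) were called lower in 2 of 16 and higher in 3 of 16. At 8 h in ahk3 ahk4 basal segments 6 of the 10 genes were called lower, where 19.7% of all genes tested were, and in WT basal segments 7 of 10, where 19.1% were. At 16 h the basal counts were 7 in ahk3 ahk4, against a background of 22.2%, and 7 in WT, against 17.8%. In medial segments 6 of the 10 were called lower at 8 h in ahk3 ahk4 (background 17.3%) and 6 in WT (19.4%). At 16 h in medial segments 4 of the 10 were called lower in ahk3 ahk4 (background 16.1%) and 6 in WT (18%). The median log2 fold change of the 10 genes lay between -2.45 in WT basal segments at 8 h and -0.87 in ahk3 ahk4 medial segments at 16 h, while the median of all genes tested lay between -0.03 and 0.05 in the same 8 comparisons.

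**Figure D1:**
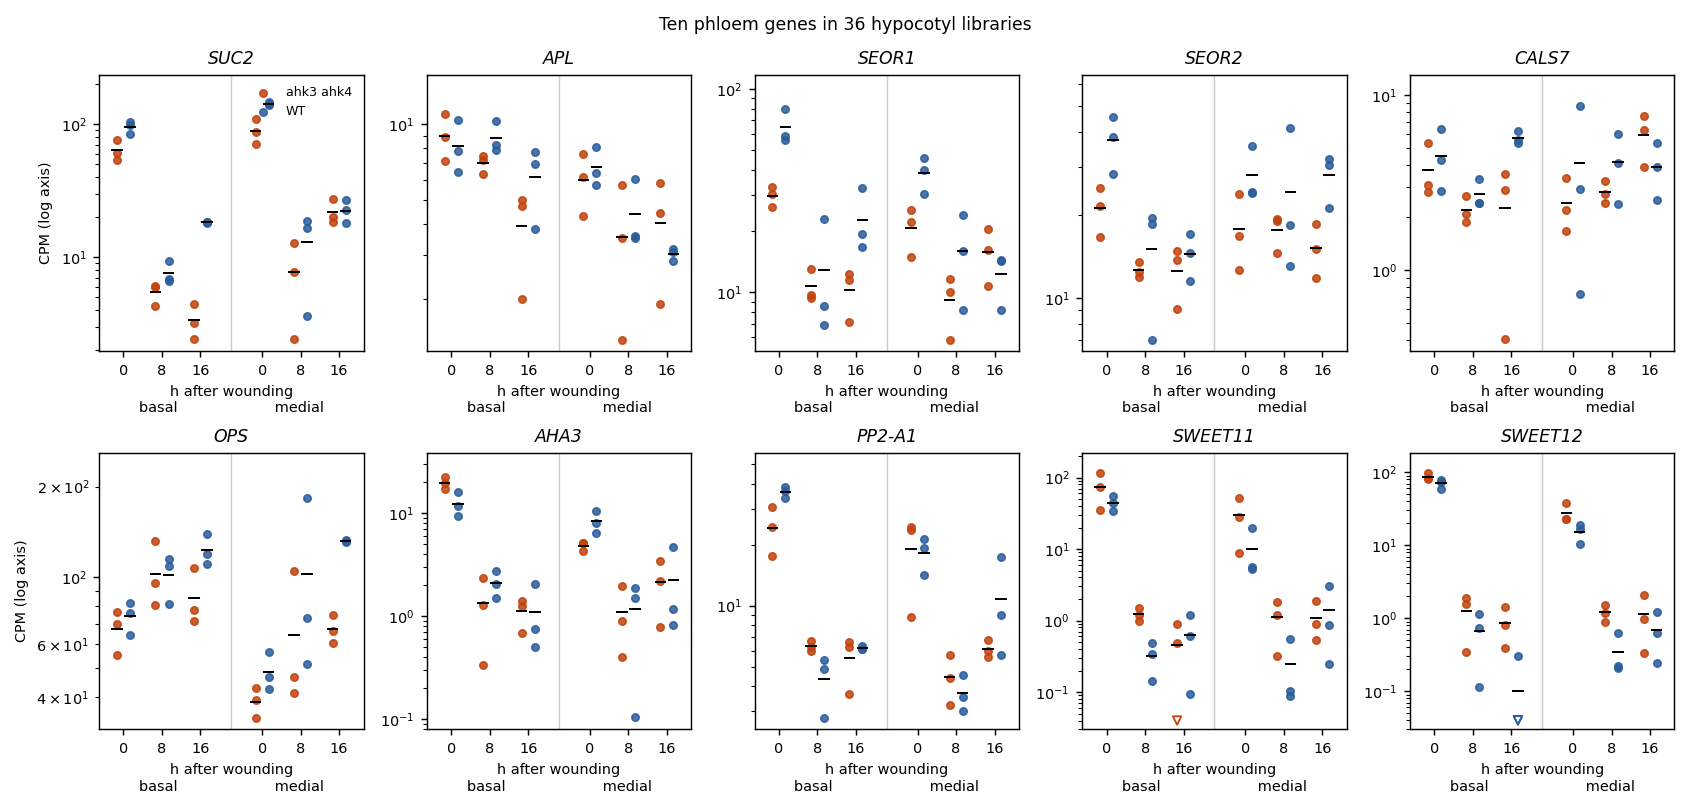
CPM (log axis) of each of the 10 genes in the 36 libraries, by region and hours after wounding, ahk3 ahk4 left of WT at each time, with 1 point per library, a bar at the group mean and open triangles for libraries with 0 counts. SUC2, SWEET11, SWEET12 and AHA3 lie lower at 8 and 16 h than at 0 h in both genotypes and regions, and OPS lies higher or overlaps.

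SWEET12, a sucrose exporter of phloem parenchyma cells, fell in all 8 comparisons with 0 h. Its values in ahk3 ahk4 basal segments were 82.5, 80.1 and 96.1 CPM at 0 h, 1.55, 1.88 and 0.344 CPM at 8 h and 0.804, 1.41 and 0.394 CPM at 16 h. Basal segments of WT had 59.3, 73.9 and 77.4 CPM of SWEET12 at 0 h, 1.15, 0.727 and 0.115 CPM at 8 h and 0.30, 0 and 0 CPM at 16 h. The lowest 0 h library of each genotype thus lay far above the highest later one. The 3 WT basal libraries at 16 h held 3 counts of SWEET12 together, against 2158 at 0 h, a level 710.2-fold lower with a 95% counting interval of 243-fold to 3447-fold, which covers counting error only. In the other 7 comparisons with 0 h the log2 fold change lay between -6.76 and -4.47, with adjusted p of at most 5.30e-08 (edgeR's quasi-likelihood test), and no group overlapped its 0 h group.

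SWEET11, the close relative of SWEET12 in the same cells, fell with it. Its level was 73.6, 34.8 and 114 CPM in ahk3 ahk4 basal segments at 0 h, 1.47, 0.997 and 1.2 CPM at 8 h and 0.893, 0 and 0.493 CPM at 16 h. In WT basal segments the values were 34.5, 55.6 and 43.8 CPM at 0 h, 0.143, 0.485 and 0.344 CPM at 8 h and 0.601, 1.18 and 0.0936 CPM at 16 h. All 8 comparisons with 0 h were called lower and none overlapped, with log2 fold changes between -7.26 in ahk3 ahk4 basal segments at 16 h and -2.92 in WT medial segments at 16 h. Both SWEET genes passed the low count filter mainly through the 0 h libraries: SWEET11 lay over the filter's 1.03 CPM in 12 of 12 libraries at 0 h, 4 at 8 h and 3 at 16 h, and SWEET12 in 12, 5 and 3.

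SUC2, the symporter that loads sucrose into companion cells, fell in every comparison with 0 h and was still counted in every later library. In ahk3 ahk4 basal segments it had 61, 53.6 and 76.1 CPM at 0 h, 5.97, 4.32 and 6.1 CPM at 8 h and 3.21, 2.41 and 4.44 CPM at 16 h. Its values in WT basal segments were 105, 83.6 and 97.9 CPM at 0 h, 9.31, 6.66 and 6.88 CPM at 8 h and 18.5, 18.2 and 18.2 CPM at 16 h. The 3 times did not overlap in WT basal segments, where 8 h was lowest, and in ahk3 ahk4 basal segments 8 h and 16 h overlapped.

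Medial segments of ahk3 ahk4 had 86.6, 109.9 and 70.3 CPM of SUC2 at 0 h, 2.43, 7.77 and 12.9 CPM at 8 h and 27.5, 18.4 and 20.03 CPM at 16 h. Its level was 139.9, 148 and 141 CPM in WT medial segments at 0 h, 16.4, 18.7 and 3.62 CPM at 8 h and 22.5, 26.7 and 18 CPM at 16 h. The lowest values at 8 h, 2.43 CPM in ahk3 ahk4 and 3.62 CPM in WT, came from the libraries that stood apart. Against 0 h the log2 fold change ranged from -4.24 ± 0.43 (SE) in ahk3 ahk4 basal segments at 16 h to -2.01 ± 0.38 in ahk3 ahk4 medial segments at 16 h, with adjusted p between 7.43e-10 and 6.83e-05 in edgeR.

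Ordered by mean, the SUC2 level was highest in WT medial segments at 0 h, 143 ± 4.33 CPM (SD, n = 3), and lowest in ahk3 ahk4 basal segments at 16 h, 3.35 ± 1.02 CPM. The 4 groups at 0 h held the first 4 places. Of the 11 pairs of neighbours in that order 8 overlapped. The 3 gaps lay between WT medial 0 h and WT basal 0 h, between ahk3 ahk4 basal 0 h and WT medial 16 h, and between WT basal 8 h and ahk3 ahk4 basal 8 h.

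AHA3, a proton pump of companion cells, fell in 7 of the 8 comparisons and lay without overlap below 0 h in all 8. In ahk3 ahk4 basal segments it had 22.7, 19.5 and 17.3 CPM at 0 h, 2.36, 0.332 and 1.29 CPM at 8 h and 1.25, 1.41 and 0.69 CPM at 16 h. Its values in WT basal segments were 16, 11.7 and 9.42 CPM at 0 h, 2.72, 2.06 and 1.49 CPM at 8 h and 0.50, 0.749 and 2.06 CPM at 16 h. Its later values rest on few reads, from 1 to 46 counts per library. The log2 fold change at 16 h was -4.13 ± 0.69 in ahk3 ahk4 basal segments and -3.46 ± 0.68 in WT basal segments. In ahk3 ahk4 medial segments at 16 h it was -1.16 ± 0.63, which did not pass (adjusted p = 0.155), with 3.43, 0.786 and 2.21 CPM at 16 h against 5.13, 4.25 and 5.17 CPM at 0 h. The medial call in ahk3 ahk4 at 8 h was lost without ahk3 ahk4 medial 8 h replicate 2 (adjusted p = 0.0600), and that in WT at 16 h without WT medial 16 h replicate 1 or 3 or WT medial 0 h replicate 1 (up to 0.0872). Adjusted for the share of reads outside genes, the falls in ahk3 ahk4 basal and in WT medial segments at 16 h did not pass (adjusted p = 0.0696 and 0.0739), and that in ahk3 ahk4 medial segments at 16 h did (-1.66, adjusted p = 0.0327). Adjusted for that of reads aligned at more than 1 place, WT medial segments at 16 h did not pass (adjusted p = 0.0848). Nor did ahk3 ahk4 medial segments at 8 h (adjusted p = 0.0615).

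PP2-A1, a lectin of companion cells and sieve elements, fell in 7 of 8 comparisons. Basal segments of ahk3 ahk4 had 24.6, 17.5 and 30.9 CPM of PP2-A1 at 0 h, 6.27, 5.98 and 6.7 CPM at 8 h and 3.66, 6.23 and 6.6 CPM at 16 h. Its level was 38.4, 36.8 and 34 CPM in WT basal segments at 0 h, 4.87, 2.79 and 5.39 CPM at 8 h and 6.31, 6.1 and 6.08 CPM at 16 h. The largest of these falls was -3.06 ± 0.38 in WT basal segments at 8 h (adjusted p = 2.54e-08, edgeR). The exception was WT medial segments at 16 h, at -0.77 ± 0.35 (adjusted p = 0.0744), where 9.04, 17.5 and 5.68 CPM at 16 h overlapped 14.2, 19.2 and 21.3 CPM at 0 h. Without WT medial 16 h replicate 2, the library with 17.5 CPM, it passed as well (-1.31, adjusted p = 0.00608). The locus overlaps AT4G19830 in the TAIR10.1 annotation, and whether the counting used strand is not given in the sources used here; reads of the pair may not be fully separated. AT4G19830 itself held 1304 counts over the 36 libraries.

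SEOR1 and SEOR2 are neighbouring genes in the TAIR10.1 annotation, and their proteins form the sieve element filaments together. In ahk3 ahk4 basal segments SEOR1 had 30.4, 33 and 26.2 CPM at 0 h, 9.66, 9.42 and 13 CPM at 8 h and 11.4, 7.13 and 12.3 CPM at 16 h. The SEOR1 values in WT basal segments were 79.5, 55.9 and 58.6 CPM at 0 h, 6.88, 8.6 and 22.9 CPM at 8 h and 16.7, 32.4 and 19.3 CPM at 16 h. SEOR1 was called lower in 7 of the 8 comparisons with 0 h, and each of those 7 was without overlap. Its log2 fold changes lay between -2.33 in WT basal segments at 8 h and -0.40 in ahk3 ahk4 medial segments at 16 h, which was the one that did not pass. Without WT medial 8 h replicate 3 the SEOR1 call in that group was lost (adjusted p = 0.0559), and without ahk3 ahk4 medial 8 h replicate 1 or ahk3 ahk4 medial 0 h replicate 1 so was the call in ahk3 ahk4 medial segments at 8 h (adjusted p = 0.0815 and 0.0577). Adjusted for the share of reads outside genes, the ahk3 ahk4 basal falls did not pass (adjusted p = 0.174 at 8 h and 0.323 at 16 h). Adjusted for that of reads aligned at more than 1 place, the fall at 16 h did not pass (adjusted p = 0.136).

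SEOR2 was called in 2 of the 8 comparisons with 0 h. Basal segments of ahk3 ahk4 had 16.7, 25.1 and 21.6 CPM of SEOR2 at 0 h, 12.5, 13.5 and 11.9 CPM at 8 h and 14.8, 13.8 and 9.07 CPM at 16 h. Its level was 45.4, 28.2 and 38.4 CPM in WT basal segments at 0 h, 7.02, 18.5 and 19.5 CPM at 8 h and 11.5, 17.1 and 14.6 CPM at 16 h. The WT basal comparisons were the 2 called lower, at -1.31 ± 0.34 at 8 h and -1.37 ± 0.34 at 16 h (adjusted p = 0.00237 and 0.00157 in edgeR). For ahk3 ahk4 basal segments the changes were -0.74 ± 0.34 and -0.75 ± 0.34, and the test of the difference between the genotypes did not pass at either time (0.57, adjusted p = 0.75, and 0.63, adjusted p = 0.53). The ahk3 ahk4 basal changes passed with the compared groups alone (-0.79 and -0.80, adjusted p = 0.0367 and 0.0439), adjusted for the share of reads outside genes (-1.42 and -1.66, adjusted p = 0.00565 and 0.00569) and for that of reads aligned at more than 1 place (-1.35 and -1.73, adjusted p = 0.00373 and 0.00295). In medial segments the 4 values of both genotypes lay between -0.23 and -0.01. The WT medial value at 8 h rested on replicate 3, the library that stood apart, with 41.5 CPM of SEOR2. Replicates 1 and 2 of that group had at most 18.4 CPM, below every WT medial library at 0 h (24.1 to 35.7 CPM). That value therefore does not show that SEOR2 stayed level in WT medial segments at 8 h.

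CALS7, the callose synthase of sieve plates, was called by edgeR in none of the 8 comparisons with 0 h. It had 2.86, 0.402 and 3.55 CPM at 16 h in ahk3 ahk4 basal segments, against 2.8, 5.31 and 3.05 CPM at 0 h, and 5.3, 6.2 and 5.52 CPM at 16 h in WT basal segments, against 2.82, 4.27 and 6.37 CPM at 0 h. These values at 16 h overlapped those at 0 h in both genotypes. In 2 of the 8 comparisons there was no overlap, both in ahk3 ahk4: 2.65, 2.11 and 1.89 CPM at 8 h against the 0 h values above in basal segments, and 7.55, 6.29 and 3.9 CPM at 16 h against 1.67, 3.34 and 2.2 CPM at 0 h in medial segments. Its 8 log2 fold changes ran from -0.73 ± 0.58 in WT basal segments at 8 h to 1.29 ± 0.58 in ahk3 ahk4 medial segments at 16 h, and 4 of them lay below 0. The 95% interval of the highest ran from 0.10 to 2.49 (adjusted p = 0.0804). At an unadjusted p under 0.05 there was 1 of the 8, and DESeq2 called 0. That medial value passed with the compared groups alone (1.27, adjusted p = 0.0382) and adjusted for the share of reads aligned at more than 1 place (1.41, adjusted p = 0.0387).

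APL, the transcription factor that promotes phloem and represses xylem identity, stayed within 1.38 and 10.9 CPM in all 36 libraries. In ahk3 ahk4 basal segments it had 8.91, 10.9 and 7.11 CPM at 0 h, 7.45, 6.32 and 7.22 CPM at 8 h and 5.0, 2.01 and 4.73 CPM at 16 h. Its values in WT basal segments were 7.78, 6.45 and 10.4 CPM at 0 h, 10.3, 7.87 and 8.25 CPM at 8 h and 3.8, 6.95 and 7.77 CPM at 16 h. Its 2 lower calls were ahk3 ahk4 basal segments at 16 h (-1.19 ± 0.42, adjusted p = 0.0199) and WT medial segments at 16 h (-1.15 ± 0.43, adjusted p = 0.0302, edgeR). The first was lost without replicate 2 of ahk3 ahk4 basal at 16 h or at 0 h (adjusted p up to 0.127), and the second without any of the 6 libraries but WT medial 0 h replicate 3 (up to 0.103). Adjusted for the share of reads outside genes, neither passed (adjusted p = 0.451 in ahk3 ahk4 basal and 0.0906 in WT medial segments). The same held for that of reads aligned at more than 1 place (adjusted p = 0.493 and 0.106). Without ahk3 ahk4 medial 8 h replicate 3 APL was also called lower in ahk3 ahk4 medial segments at 8 h (-1.30, adjusted p = 0.0303).

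OPS, a polar membrane protein of developing sieve elements, was the only gene of the 10 called higher against 0 h. All 8 of its log2 fold changes against 0 h lay above 0, and 3 of them passed, all in medial segments. Medial segments of ahk3 ahk4 had 39, 42.9 and 34 CPM of OPS at 0 h, 46.5, 105 and 41.2 CPM at 8 h and 66.1, 74.9 and 60.3 CPM at 16 h. Its level was 46.5, 42.7 and 56.6 CPM in WT medial segments at 0 h, 51.4, 73.5 and 183 CPM at 8 h and 132, 133 and 131 CPM at 16 h. The 3 WT libraries at 16 h lay close together and above every WT medial library at 0 h.

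At 16 h the rise of OPS was 0.80 ± 0.31 in ahk3 ahk4 medial segments (adjusted p = 0.0447, where 19.2% of all genes tested were called higher) and 1.44 ± 0.32 in WT medial segments (adjusted p = 0.000355, where 21.3% were). The call at 8 h in WT medial segments, 1.08 ± 0.31 (adjusted p = 0.00564, background 20.6%), rested on replicate 3, the library that stood apart: without it the value was 0.36 (adjusted p = 0.336). The ahk3 ahk4 call at 16 h was lost with any library but ahk3 ahk4 medial 16 h replicate 3 left out, with adjusted p up to 0.131. In basal segments OPS had 71.3, 77.9 and 108 CPM at 16 h and 55.1, 76.4 and 69.8 CPM at 0 h in ahk3 ahk4, and 111, 119.8 and 139 CPM at 16 h and 82.2, 64.1 and 76.3 CPM at 0 h in WT. None of the 4 basal comparisons passed, the nearest being WT at 16 h (0.73 ± 0.31, adjusted p = 0.0599, edgeR), which passed with the compared groups alone (adjusted p = 0.000353). In ahk3 ahk4 medial segments at 8 h OPS passed without replicate 1, the library that stood apart (0.93, adjusted p = 0.0320), or replicate 3 (0.98, adjusted p = 0.0185) of that group.

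**Figure D2:**
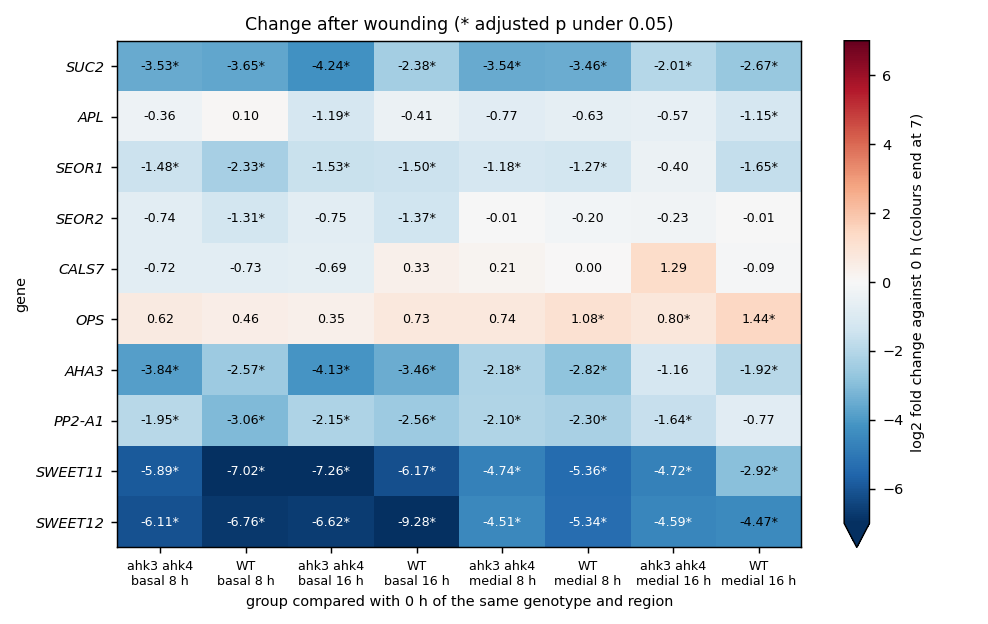
Log2 fold change against 0 h of the same genotype and region for the 10 genes (down) in 8 groups (across), blue for lower and red for higher, with the fitted value printed and an asterisk at an adjusted p under 0.05. The SWEET11, SWEET12 and SUC2 rows carry an asterisk in all 8 groups, CALS7 in none, and the 3 asterisks of OPS are the only ones on a positive value.

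Between 8 and 16 h few of the genes moved. SUC2 was higher at 16 h than at 8 h in ahk3 ahk4 medial segments, by 1.53 ± 0.39 (adjusted p = 0.00935), the 1 gene of 10 called higher where 5.04% of all genes tested were. It was also higher in WT basal segments, by 1.27 ± 0.39 (adjusted p = 0.045), again 1 of 10, with a background of 3.44%. For ahk3 ahk4 basal segments none of the 10 was called, by edgeR or DESeq2 or at an unadjusted p under 0.05 (0 genes), where 5.62% of all genes were called in either direction, and SUC2 changed by -0.71 ± 0.42 (adjusted p = 0.359). PP2-A1 was the 1 gene called in WT medial segments, higher by 1.53 ± 0.36 (adjusted p = 0.00292), with a background of 10.4%. Each of the 3 calls was lost with at least 1 replicate left out. That of SUC2 was lost in ahk3 ahk4 medial segments without ahk3 ahk4 medial 8 h replicate 1, the library that stood apart, or 16 h replicate 1 (adjusted p = 0.0747 and 0.0565), and in WT basal segments when any of the 6 libraries compared was left out (adjusted p from 0.0663 to 0.169). PP2-A1 was no longer called without WT medial 16 h replicate 2 (adjusted p = 0.0720). Other settings ended the SUC2 calls too. In ahk3 ahk4 medial segments SUC2 did not pass adjusted for the share of reads outside genes (0.85, adjusted p = 0.125). With the compared groups alone it did not pass there either (adjusted p = 0.0995). In WT basal segments it did not pass with no low count filter or with a replicate block (adjusted p = 0.0732 and 0.0577). Other genes were called under an alternative. In WT medial segments OPS was higher at 16 h without WT medial 8 h replicate 3, the library that stood apart (1.08, adjusted p = 0.00972). SUC2 was higher there when adjusted for the share of reads aligned at more than 1 place or of reads outside genes (1.06 and 1.27, adjusted p = 0.00952 and 0.0035). In WT basal segments SEOR1 was higher without WT basal 8 h replicate 3 (1.56, adjusted p = 0.0152). SWEET12 was called lower without WT basal 16 h replicate 1 (adjusted p = 0.0443), which leaves 0 counts at 16 h.

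At 0 h SWEET12 was higher in basal than in medial segments of both genotypes, and SWEET11 in those of WT. In all, 2 of the 10 were called higher in basal segments of ahk3 ahk4, where 5.15% of all genes tested were called higher, and 3 in WT, where 5.79% were. SWEET12 had 82.5, 80.1 and 96.1 CPM in basal against 38.1, 23.1 and 22.7 CPM in medial segments of ahk3 ahk4, and 59.3, 73.9 and 77.4 CPM in basal against 10.4, 18.9 and 16.5 CPM in medial segments of WT. No basal library overlapped a medial one, and the difference was 1.63 ± 0.43 in ahk3 ahk4 (adjusted p = 0.0091) and 2.20 ± 0.44 in WT (adjusted p = 0.00057, edgeR). The second call in ahk3 ahk4 was AHA3, at 2.03 ± 0.61 (adjusted p = 0.0234), with 22.7, 19.5 and 17.3 CPM in basal against 5.13, 4.25 and 5.17 CPM in medial segments. In WT the others were SWEET11, at 2.13 ± 0.67 (adjusted p = 0.0333), and PP2-A1, at 1.00 ± 0.34 (adjusted p = 0.0483).

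SUC2 went the other way at 0 h without passing, at -0.48 ± 0.36 in ahk3 ahk4 (adjusted p = 0.447) and -0.58 ± 0.36 in WT (adjusted p = 0.339). It passed in ahk3 ahk4 adjusted for the share of reads outside genes (-1.03, adjusted p = 0.0223) or of reads aligned at more than 1 place (-0.93, adjusted p = 0.0344). In WT it passed with the compared groups alone (adjusted p = 0.0159). With the compared groups alone OPS was also higher in basal segments of ahk3 ahk4 and of WT (adjusted p = 0.0191 and 0.0166), and SEOR1 in those of WT (adjusted p = 0.0157). Leaving out single replicates ended the call of AHA3 for all but ahk3 ahk4 basal 0 h replicate 3 (adjusted p up to 0.0940), and of PP2-A1 for any of the 6 (up to 0.182). The SWEET11 call ended for basal 0 h replicates 2 and 3 and medial 0 h replicates 1 and 3 of WT (up to 0.148), and that of SWEET12 in ahk3 ahk4 for ahk3 ahk4 medial 0 h replicates 2 and 3 (up to 0.0594). Other settings also ended calls. AHA3 in ahk3 ahk4 did not pass adjusted for the share of reads outside genes or of reads aligned at more than 1 place (adjusted p = 0.129 and 0.0686). SWEET11 in WT did not pass in DESeq2 or with no low count filter (adjusted p = 0.0650 and 0.0635). PP2-A1 did not pass with RLE factors, no low count filter, a replicate block or either share as covariate (adjusted p from 0.0518 to 0.0571). The SWEET12 call in WT was lost under none of the alternatives run (adjusted p up to 0.00845). The marker genes of photosynthetic cells were also unequal between regions at 0 h: their summed level lay between 805 and 905 CPM in basal and between 1884 and 2277 CPM in medial segments of ahk3 ahk4, and between 1360.3 and 1557 CPM in basal and between 2519 and 2889 CPM in medial segments of WT. Of the other marker lists, 4 of 6 endodermis, 3 of 6 shoot epidermis and 5 of 8 tested xylem markers were lower in basal segments of ahk3 ahk4 at 0 h, and 5 of 6 shoot epidermis markers in those of WT, where 7.23% and 6.7% of all genes tested were called lower. Summed cambium markers at 0 h went the other way, without overlap. They lay between 76.0 and 98.8 CPM in basal and between 52.4 and 74.1 CPM in medial segments of ahk3 ahk4. In WT the values were 109 to 115 and 68.7 to 85.6 CPM. Sums of the sieve element and DOF genes described below were also higher in basal segments of both genotypes, without overlap. That of transport genes was lower in WT (448 to 460 against 508 to 708 CPM). The part of these lists in the phloem results was not tested.

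At 8 h none of the 10 genes differed between regions in either genotype by edgeR, where 13.2% of all genes tested were called in ahk3 ahk4 and 14.1% in WT. At an unadjusted p under 0.05 there were 2 in ahk3 ahk4 and 1 in WT, and DESeq2 called 0 and 0. Without WT medial 8 h replicate 3, the library that stood apart, SUC2 was lower in basal than in medial segments of WT at 8 h (-1.21, adjusted p = 0.0162). In ahk3 ahk4 at 8 h OPS passed without medial 8 h replicate 2 (1.23, adjusted p = 0.00878) and APL without medial 8 h replicate 3 (1.52, adjusted p = 0.0301). At 16 h in ahk3 ahk4, 1 of 10 was lower in basal segments, where 13% of all genes tested were called lower. It was SUC2, with 3.21, 2.41 and 4.44 CPM in basal against 27.5, 18.4 and 20.03 CPM in medial segments (-2.71 ± 0.42, adjusted p = 9.17e-06). In WT at 16 h 2 of 10 were lower in basal segments, where 10.9% of all genes tested were called lower: SEOR2 (-0.95 ± 0.34, adjusted p = 0.042) and SWEET12 (3 counts in basal against 23 in medial segments, adjusted p = 0.0471). Those WT calls were lost with 5 of 6 replicates left out in turn for SEOR2, all but WT medial 16 h replicate 2 (adjusted p up to 0.156), and 4 of 6 for SWEET12, replicates 2 and 3 of each region (up to 0.215). SUC2 in WT at 16 h differed by -0.29 ± 0.37 (adjusted p = 0.641). PP2-A1 was called lower in basal segments of WT at 16 h without WT medial 16 h replicate 3 (-1.10, adjusted p = 0.0362), and CALS7 in those of ahk3 ahk4 without ahk3 ahk4 basal 16 h replicate 3 (-1.84, adjusted p = 0.0401).

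Over the 6 comparisons of ahk3 ahk4 with WT, 1 difference of the 10 genes passed, SUC2 in basal segments at 16 h. There it had 3.21, 2.41 and 4.44 CPM in ahk3 ahk4 against 18.5, 18.2 and 18.2 CPM in WT, with no overlap. The log2 fold change was -2.44 ± 0.41 (95% interval -3.30 to -1.59, adjusted p = 0.000847, edgeR), and SUC2 was the 1 gene of 10 called in that comparison, where 2.65% of all genes tested were called lower. DESeq2 called 3 of the 10 there, SEOR1 (-1.12, adjusted p = 0.0358) and SWEET12 beside SUC2. In edgeR SEOR1 also passed there with the compared groups alone (-1.16, adjusted p = 0.0484) and without ahk3 ahk4 basal 16 h replicate 3 (-1.29, adjusted p = 0.0463). In medial segments at the same time SUC2 had 27.5, 18.4 and 20.03 CPM in ahk3 ahk4 against 22.5, 26.7 and 18 CPM in WT, a difference of -0.02 ± 0.37 (95% interval -0.79 to 0.74, adjusted p = 0.991). At 0 h SUC2 lay lower in ahk3 ahk4 in both regions without passing, at -0.58 ± 0.36 in basal and -0.68 ± 0.36 in medial segments (adjusted p = 0.497 and 0.325).

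Other measures in basal segments at 16 h are given here for both genotypes. The marker sums of cambium and endodermis did not overlap between the genotypes, and those of xylem, shoot epidermis and photosynthetic cells did. The summed level of 5 cambium markers lay between 24.6 and 55.7 CPM in ahk3 ahk4 and between 85.1 and 91.2 CPM in WT. Of these 5 markers 2 were called lower, where 2.65% of all genes tested were. The 9 xylem markers summed to between 48.4 and 67.4 CPM in ahk3 ahk4, with VND6 at 0 counts in all 3 libraries, and to between 66.7 and 127 CPM in WT. The 6 endodermis markers summed to between 101 and 125 CPM in ahk3 ahk4 and between 171 and 257 CPM in WT, the 6 shoot epidermis markers to between 357 and 657 CPM in ahk3 ahk4 and between 376 and 474 CPM in WT, with CER1 at 0 counts in both and PDF1 in WT, and the 5 markers of photosynthetic cells to between 588 and 1099 CPM in ahk3 ahk4 and between 967 and 1825 CPM in WT. Reads outside genes were 1.51% to 2.64% in ahk3 ahk4 and 2.98% to 3.3% in WT, and reads aligned at more than 1 place 2.98% to 15.1% in ahk3 ahk4 and 23.0% to 27.8% in WT. Adjusted for the share of reads outside genes, the SUC2 difference was -1.52 ± 0.39 (adjusted p = 0.0644). Cambium and endodermis sums were already lower in ahk3 ahk4 basal segments at 0 h, without overlap. For endodermis they lay between 720 and 766 CPM in ahk3 ahk4 and between 1888 and 2214 CPM in WT. Among the lists of other phloem genes described below, sieve element genes at 16 h summed to 80.9 to 114 CPM in ahk3 ahk4 and 140 to 170 CPM in WT. DOF genes summed to 105 to 133 and 185 to 228 CPM. The sums of the other phloem lists overlapped. The part of all these levels in the SUC2 result was not tested.

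The other genotype comparisons called none of the 10 genes. The backgrounds in ahk3 ahk4 against WT, in either direction, were 3.08% at 0 h and 0.293% at 8 h in basal segments, and 5.77% at 0 h, 2.26% at 8 h and 3.32% at 16 h in medial segments. At an unadjusted p under 0.05 there were 2 of the 10 in basal segments at 0 h, 0 at 8 h, and 2, 3 and 3 in medial segments at 0, 8 and 16 h. DESeq2 called 0, 0, 0, 0 and 1 in the same order of comparisons.

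Libraries of the 2 genotypes did not overlap for 6 of the 10 genes in basal segments at 0 h, against 24.2% of all genes tested, 4 at 8 h (11.9%) and 5 at 16 h (29.5%). In medial segments the counts were 5 at 0 h (23.5%), 1 at 8 h (15.8%) and 2 at 16 h (28.6%). The genes without a call but with no overlap include 3 given here, chosen after their values were seen. SEOR1 at 0 h had 30.4, 33 and 26.2 CPM in ahk3 ahk4 basal against 79.5, 55.9 and 58.6 CPM in WT basal segments, a difference of -1.12 ± 0.37 (adjusted p = 0.0938). OPS at 16 h had 66.1, 74.9 and 60.3 CPM in ahk3 ahk4 medial against 132, 133 and 131 CPM in WT medial segments, a difference of -0.98 ± 0.31 (adjusted p = 0.072). SWEET12 at 16 h had 27 counts over 3 ahk3 ahk4 basal libraries against 3 counts over 3 WT basal libraries, a ratio of 8.63 with a 95% counting interval of 2.66 to 44.5 (adjusted p = 0.0549). None of the 3 passed in edgeR over all 36 libraries, and each passed under another setting. SEOR1 passed with the compared groups alone (-1.10, adjusted p = 0.00135) and adjusted for the share of reads outside genes (-1.26, adjusted p = 0.0298). OPS passed in DESeq2 (-0.98, adjusted p = 0.0331) and with the compared groups alone (adjusted p = 0.000697). SWEET12 passed in DESeq2 (3.14, adjusted p = 0.0182), and in edgeR without WT basal 16 h replicate 1, which held all 3 WT counts (adjusted p = 0.0357). It also passed there without ahk3 ahk4 basal 16 h replicate 3 (adjusted p = 0.0200). With the compared groups alone SUC2 and SEOR2 in basal segments at 0 h (adjusted p = 0.0494 and 0.0404) and SEOR2 in medial segments at 16 h (adjusted p = 0.0195) were also lower in ahk3 ahk4. In medial segments at 8 h OPS passed without ahk3 ahk4 medial 8 h replicate 2 (-1.23, adjusted p = 0.0353) and SUC2 without replicate 3 (-1.33, adjusted p = 0.0455).

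**Figure D3:**
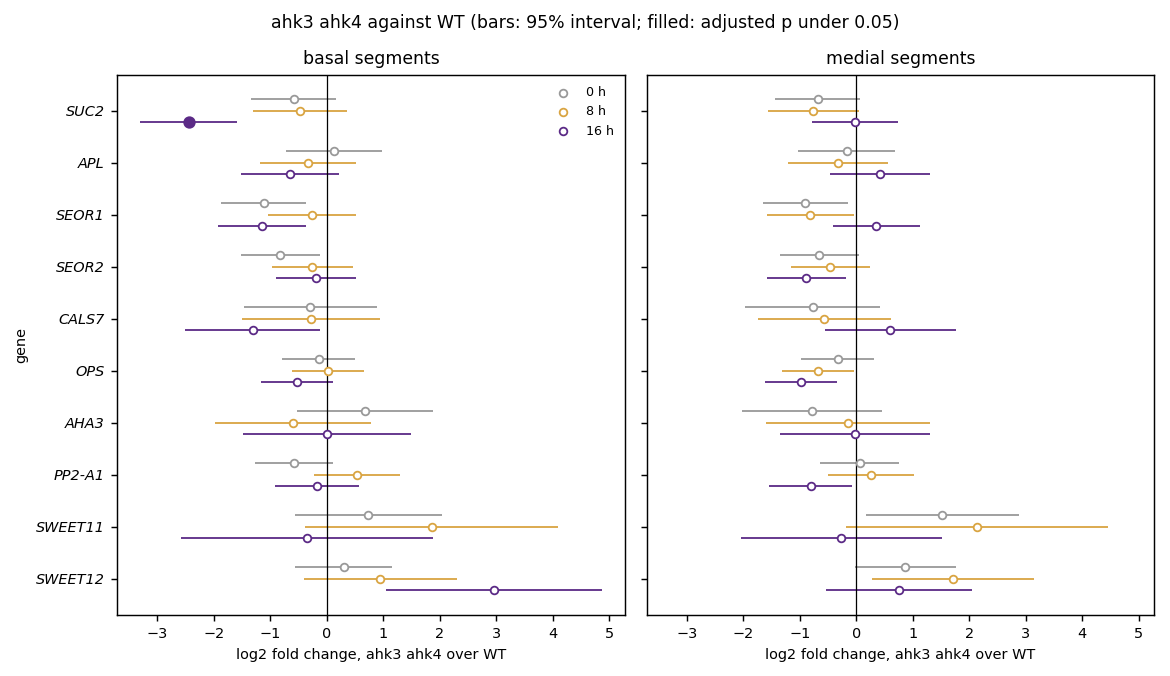
Log2 fold change of ahk3 ahk4 over WT for the 10 genes (down) in basal (left) and medial (right) segments at 0, 8 and 16 h, with bars for the 95% interval from the SE and 24 residual degrees of freedom, and a filled point where the adjusted p was under 0.05. The filled point is SUC2 in basal segments at 16 h, at -2.44, and the medial SUC2 point at 16 h lies at -0.02.

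Whether an effect differed between groups was tested by interactions, of which 5 of 110 passed, all negative. SUC2 gave 2 of them. The genotype difference in basal minus that in medial segments at 16 h was -2.42 ± 0.55 (adjusted p = 0.00514), the 1 gene of 10 called lower where 5.56% of all genes tested were. The change of SUC2 from 0 to 16 h in basal minus that in medial segments of ahk3 ahk4 was -2.23 ± 0.55 (adjusted p = 0.00476). AHA3 was the other gene of 2 called there, at -2.97 ± 0.91 (adjusted p = 0.0212), where 8.16% of all genes tested were called lower. In WT the same interaction called 2 of 10 lower, where 5.46% of all genes tested were: SWEET12 at -4.81 ± 1.02 (adjusted p = 0.00189), whose fitted value rests on the 3 counts named above, and PP2-A1 at -1.79 ± 0.49 (adjusted p = 0.0147). Adjusted for the share of reads outside genes or for that of reads aligned at more than 1 place, the SUC2 and AHA3 interactions did not pass (adjusted p from 0.369 to 0.842), and the SUC2 genotype by region value was then -0.65 or -0.99. The PP2-A1 interaction was lost without WT medial 16 h replicate 2 (-1.25, adjusted p = 0.108) and that of AHA3 without ahk3 ahk4 medial 16 h replicate 1 (adjusted p = 0.0920). Others passed under an alternative. SEOR1 did so for genotype by region at 16 h in DESeq2 (-1.48, adjusted p = 0.0453) and with the compared groups alone (adjusted p = 0.0298). SWEET12 did so for region by time in ahk3 ahk4 at 16 h in DESeq2 (-2.07, adjusted p = 0.0217) and with the compared groups alone (adjusted p = 0.0302). SEOR2 passed for the same in WT in DESeq2 (-1.37, adjusted p = 0.0479) and with the compared groups alone (adjusted p = 0.00772).

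The remaining interactions with region called none of the 10 genes by edgeR. The background was 4.67% for region by time in ahk3 ahk4 at 8 h, 6.13% for the same in WT, 0.237% for genotype by region at 0 h and 0.0505% for genotype by region at 8 h. At an unadjusted p under 0.05 there was 1 of the 10, 1, 0 and 0 in the same order, and DESeq2 called 0 in each of the 4.

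No genotype by time interaction passed in edgeR for any of the 10 genes, where the background was 0.833% at 8 h and 2.39% at 16 h in basal and 3.07% at 8 h and 4.49% at 16 h in medial segments. For SUC2 the fall to 16 h in basal segments was -4.24 ± 0.43 in ahk3 ahk4 and -2.38 ± 0.38 in WT, and the difference of those falls was -1.86 ± 0.55 (adjusted p = 0.0581). That difference passed in DESeq2 (adjusted p = 0.0186), with the compared groups alone (adjusted p = 0.00172) and without ahk3 ahk4 basal 16 h replicate 3 (-2.11, adjusted p = 0.0289). At an unadjusted p under 0.05 there were 1 of the 10 at 8 h and 2 at 16 h in basal segments, and 0 and 1 in medial segments, and DESeq2 called 0, 1, 0 and 0.

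The shared pattern of the genes was described by Pearson's r of log2 CPM over the 12 group means, which share the same libraries and the same normalization. SWEET11 and SWEET12 were most alike, at 0.979, followed by PP2-A1 with SWEET11 at 0.946 and AHA3 with SWEET12 at 0.942. SUC2 was closest to PP2-A1, at 0.871, and SEOR1, at 0.868. SEOR1 and SEOR2, whose genes lie side by side, had an r of 0.699. OPS ran against the transport genes, at -0.653 with SWEET12 and -0.536 with SUC2, and CALS7 followed none of the others above 0.4.

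**Figure D4:**
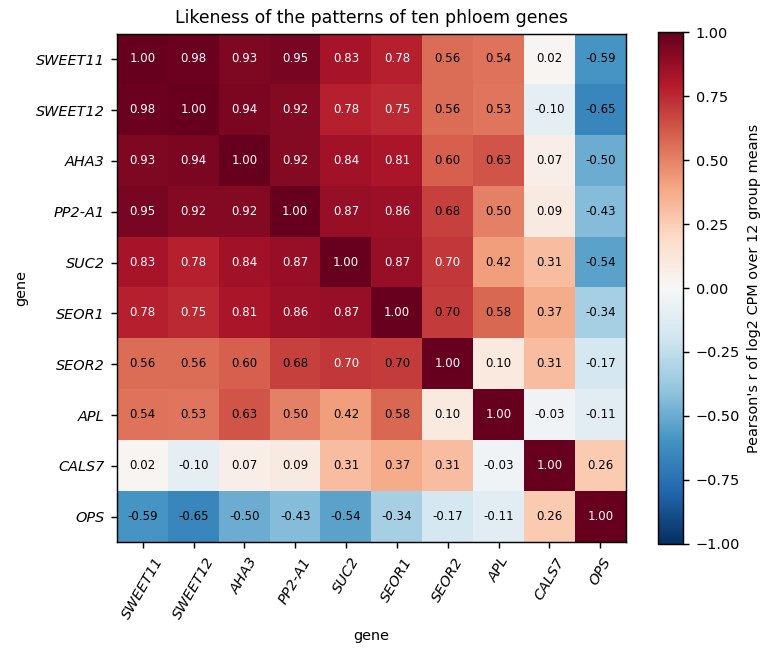
Pearson's r of log2 CPM over the 12 group means for each pair of the 10 genes, blue below 0 and red above. SWEET11, SWEET12, AHA3, PP2-A1, SUC2 and SEOR1 form a block of high values, whose highest pair is SWEET11 with SWEET12 at 0.979, and OPS is negative with the transport genes.

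Among all 19819 genes tested, those most like SUC2 over the 12 group means were GSL1 (AT4G04970) at an r of 0.978, AT5G37710 at 0.977 and UGT76E2 (AT5G59590) at 0.970. SWEET12 was most like AT5G21020 at 0.984, AT1G53780 at 0.980 and AT3G48115 at 0.979. PP2-A1 was most like AT2G36320 at 0.981, AT5G16110 at 0.978 and SKP2A (AT1G21410) at 0.973. APL was most like AT2G17500 at 0.962, AT4G22230 at 0.961 and AT1G72210 at 0.945. Over the 36 single libraries these r of APL were lower, at 0.738, 0.775 and 0.623. Those of SUC2, SWEET12 and PP2-A1 then lay between 0.807 and 0.953. For OPS, looked up after its values were seen, the top gene was AT5G57130 at 0.923, which is SMXL5 of the list of sieve element genes described next.

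Other phloem genes were counted in 4 lists. Of 14 tested genes of sieve element differentiation, 3 were called higher and 2 lower in ahk3 ahk4 basal segments at 16 h against 0 h, where 24.7% of all genes tested were higher and 22.2% lower, with a median log2 fold change of -0.48. In WT basal segments at 16 h 1 was called, lower, where 17.8% of all genes tested were, with a median of -0.32. In medial segments at 16 h 1 was called in ahk3 ahk4 and 3 in WT, all higher (backgrounds 19.2% and 21.3%), with medians of 0.43 and 0.12. The medians of all genes tested in these 4 comparisons lay between 0.00 and 0.05. SMXL5, one of the SMXL proteins that promote phloem formation, rose in medial segments at 16 h, to 32.8 ± 3.23 CPM at 16 h against 15.8 ± 1.74 CPM at 0 h in ahk3 ahk4 (1.06 ± 0.30, adjusted p = 0.00555), and to 46.6 ± 4.28 CPM at 16 h against 22.6 ± 1.34 CPM at 0 h in WT (1.05 ± 0.30, adjusted p = 0.00505). Its likeness to OPS was found above from the same libraries, so a rise shared with OPS is not a separate result. SMXL3, of the same family, fell to 0.373 ± 0.278 CPM at 8 h against 6.99 ± 2.64 CPM at 0 h in ahk3 ahk4 basal segments (-4.11 ± 0.62) and to 1.09 ± 0.317 CPM against 5.76 ± 1.95 CPM in WT basal segments (-2.39 ± 0.57). CHER1, a choline transporter needed for sieve plates, rose in ahk3 ahk4 basal segments at 8 h by 1.21 ± 0.26 and in WT medial segments at 8 h by 0.87 ± 0.26. The WT medial group at 8 h includes replicate 3, the library that stood apart, and CHER1 was not followed without it.

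The other genes of phloem transport and loading, 15 of them tested, did not move one way. In basal segments at 16 h 5 were higher and 5 lower in ahk3 ahk4 (backgrounds 24.7% and 22.2%), with a median of -0.12, and 4 higher and 5 lower in WT (backgrounds 20% and 17.8%), with a median of -0.31. AKT2, a potassium channel of the phloem, fell in basal segments at 8 h to 2.15 ± 0.997 CPM at 8 h against 17.8 ± 4.44 CPM at 0 h in ahk3 ahk4 (-3.01 ± 0.36), and to 0.915 ± 0.547 CPM against 22.5 ± 5.58 CPM in WT (-4.64 ± 0.42). SULTR2;1, a sulfate transporter of vascular tissue, fell in basal segments at 16 h, with a log2 fold change of -2.86 ± 0.29 in ahk3 ahk4 and -3.38 ± 0.29 in WT. AAP3, an amino acid permease, rose in ahk3 ahk4 basal segments at 16 h, to 47.7 ± 8.82 CPM at 16 h against 6.0 ± 0.556 CPM at 0 h (2.99 ± 0.34). AKT2 was higher in ahk3 ahk4 than in WT medial segments at 16 h, at 40.8 ± 6.51 CPM in ahk3 ahk4 and 17.6 ± 3.03 CPM in WT (1.22 ± 0.32, adjusted p = 0.0283).

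Of 6 DOF transcription factor genes linked to phloem, 1 was higher and 1 lower in ahk3 ahk4 basal segments at 16 h (backgrounds 24.7% and 22.2%), and in WT basal segments at 16 h their median was -0.03. TMO6, one of them, was lower in ahk3 ahk4 basal segments at 16 h, at 55.4 ± 15.2 CPM in ahk3 ahk4 and 115 ± 6.54 CPM in WT (-1.05 ± 0.30, adjusted p = 0.0372), in the same comparison as SUC2. Of 4 other genes enriched in phloem, 2 were called at 16 h in basal segments of ahk3 ahk4 and 2 in WT, all lower (backgrounds 22.2% and 17.8%), with medians of -0.42 and -0.73. NHL26, a plasmodesmal protein of companion cells, fell to 1.75 ± 0.397 CPM at 16 h against 18.1 ± 1.78 CPM at 0 h in ahk3 ahk4 basal segments (-3.36 ± 0.40), and to 2.33 ± 0.989 CPM against 11.9 ± 1.57 CPM in WT basal segments (-2.35 ± 0.38).

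Markers of other cell types also moved with time, where 22.2% of all genes tested were called lower at 16 h against 0 h in ahk3 ahk4 basal segments and 17.8% in WT basal segments. Of 6 endodermis markers, 4 were lower in ahk3 ahk4 basal segments and 6 in WT basal segments at 16 h against 0 h. Of 6 shoot epidermis markers, 5 were lower in basal segments at 16 h in ahk3 ahk4 and 5 in WT. Of 8 tested xylem markers, 4 were lower in ahk3 ahk4 basal and 5 in WT basal segments at 16 h, and of 5 cambium markers 3 were lower in ahk3 ahk4 basal segments. The 4 root hair markers passed no filter and summed to at most 1.79 CPM in a library. At 16 h not every summed level lay below that at 0 h, but the sums given next were all lower at 8 h. In basal segments the 5 photosynthetic markers had a mean sum of 865 CPM at 0 h, 272 at 8 h and 812 at 16 h in ahk3 ahk4. In WT it was 1463, 135 and 1469 CPM. In medial segments it was 2128, 1533 and 5350 CPM in ahk3 ahk4 and 2665, 1190 and 5069 CPM in WT. The 6 endodermis markers in medial segments summed to 1861, 840 and 1712 CPM in ahk3 ahk4 and 2111, 712 and 2394 CPM in WT. The part of all these markers in the fall of the phloem genes was not tested.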

How the data were processed

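Polyadenylated 3′ ends were counted in 36 libraries of 12 groups. The authors deposited 1 table of raw read counts per library, with 32833 loci and 5 lines naming no gene, which held 4.59% to 62.2% of the reads and were left out of library sizes and tests. HTSeq and DESeq2 are named without versions in the submitters' processing notes. Aligner, annotation, strand setting and genome build: not given in the sources used here. No coordinates or sequences are therefore printed. Symbols and neighbours came from a RefSeq table of TAIR10.1, which holds all 10 loci (SEOR2 as SEOa).

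Counts were tested with edgeR 4.0.16 in R 4.3.3: TMM factors, filterByExpr by group, 1 mean per group, robust quasi-likelihood, 24 residual degrees of freedom, 24 comparisons of 2 groups and 11 interactions, two-sided, Benjamini-Hochberg over 19819 genes per comparison, called under 0.05. SE is the log2 fold change over the square root of F, and CPM are scaled by TMM library sizes. Correlations used log2 CPM with a prior count of 2. Counting intervals are exact, at 95%. The steps were tested on simulated data. No pair of replicates agreed within sampling noise (lowest chi-square per degree of freedom 9.76). Alternatives were DESeq2 1.42.0, RLE factors, no low count filter, the compared groups alone, non-robust estimation, a replicate block, 2 covariates and each library left out. Their results were kept for the 10 genes and not for the lists. All 10 genes are named, with the 3 most similar genes of 4 of them and up to 3 genes with the lowest adjusted p per list. The genes and lists were chosen with earlier results of these data known.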

Additional observations from a re-analysis of the deposited data

Results flagged for a closer look

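Of the 10 phloem genes, 4 had an effect whose size differed between groups by the test of the difference itself. SUC2 passed 2 such tests. Its difference between ahk3 ahk4 and WT at 16 h was lower in basal than in medial segments, by -2.42 on the log2 scale, and its change from 0 to 16 h in ahk3 ahk4 was lower in basal than in medial segments, by -2.23. AHA3 had the same kind of difference between regions in its change to 16 h in ahk3 ahk4, at -2.97. In WT the change to 16 h was lower in basal than in medial segments for PP2-A1, at -1.79, and for SWEET12, at -4.81, where 3 counts stand for the 3 WT basal libraries. Adjusted p values and the settings that end these calls stand with the interactions above.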

How the results depend on the processing

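Of 350 tests of the 10 genes 69 were called, and 44 of these stayed called under every alternative run, while 25 were lost under at least 1. Leaving out single libraries ended 19, a covariate for reads outside genes 15, one for reads aligned at more than 1 place 12, no low count filter 4, the replicate block 3, and DESeq2, RLE factors and the compared groups alone 1 each. Of the counts of calls per family of 30 tests, those of lower levels over time stayed within 1.5 times. Higher calls over time in WT basal segments were 1, against 2 in the compared groups alone, 0 with no low count filter, 0 with the replicate block and 0 to 1 with a replicate left out. Higher calls over time in ahk3 ahk4 medial segments were 2, against 1 with the covariate for reads outside genes and 0 to 3 with a replicate left out. Basal levels were called higher than medial in WT in 3 tests, against 6 in the compared groups alone, 1 with no low count filter and 1 to 3 with a replicate left out. Lower calls in WT were 2, against 1 with no filter, 1 with the replicate block, 0 with either covariate and 0 to 3 with a replicate left out. In ahk3 ahk4 basal against medial gave 2 higher, against 1 with either covariate and 0 to 3 with a replicate left out, and 1 lower, against 2 with either covariate and 1 to 2 with a replicate left out. For ahk3 ahk4 against WT in basal segments 0 were called higher, against 1 with DESeq2 and 0 to 1 with a replicate left out, and 1 lower, against 2 with DESeq2, 5 in the compared groups alone and 1 to 2 with a replicate left out. In medial segments 0 were called lower, against 1 with DESeq2, 2 in the compared groups alone and 0 to 1 with a replicate left out. Interactions were 5, against 9 with DESeq2, 11 in the compared groups alone, 2 with either covariate and 4 to 8 with a replicate left out. The 1 sign that turned was OPS in ahk3 ahk4 against WT medial segments at 8 h, uncalled at -0.67, which lay between -1.23 and 0.0447 with a replicate left out, the positive value being without WT medial 8 h replicate 3. The labels do not say whether replicate numbers mark a shared day or batch. The deviations of same-numbered libraries had correlations from -0.216 to 0.265, all 3 over 0.1 in 0 of 24 comparisons. With 3 libraries per group these cannot decide it. The replicate block ended the calls of PP2-A1 and SWEET12 between regions in WT at 0 and 16 h and of SUC2 in WT basal segments at 16 h against 8 h, and no other. The cause of these changes was not tested. SWEET11, SWEET12 and AHA3 hold few reads after wounding, which limits how precisely their later groups can be compared.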
